A study of Mus musculus with 160 samples.

Results

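The GATA factors Gata1, Gata2 and Gata3, the GATA cofactor gene Zfpm1 and the transcription factor gene Mitf were followed through single cells on the path from induced hemogenic endothelial cells (iHECs) to induced hematopoietic progenitor cells (iHPCs). The 5 genes were taken by name from the 23420 rows of a table of TPM, a transcript level scaled to about the same total within each cell, and all 5 had a row. The table held 160 mouse cells, namely 65 iHECs and 21 D14, 18 D17 and 56 D21 iHPCs, where the D14, D17 and D21 cells correspond to Day3, Day6 and Day10 of maturation. The labels give no day for the iHECs, which the paper collected before the D14 cells. All cells were of strain C57BL/6 and came from pluripotent stem cells. In these, doxycycline switches on Runx1 and Hoxa9 from the same cassette at the Rosa26 locus. The labels say ESC/iPSC, without saying which for each cell, and the paper names ESCs as the source of the iHPCs. The lines were selected clones, and the iHPCs had matured on OP9-DL1, a stromal feeder line carrying a Notch ligand, in the presence of doxycycline. In the paper's protocol doxycycline was added before the iHECs were sorted, so the cells of all groups had received it.

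The sort differed between groups. For iHECs the gate was CD31+CD41lowCD45-c-kit+CD201high. The D14 and D17 cells were CD45+ and negative for a lineage mixture that included FcεRIα, the IgE receptor chain of mast cells and basophils. The D21 cells were Ter119-CD45+c-kit+CD127+, with no exclusion by FcεRIα, so the day and the gate of the D21 cells cannot be told apart. The labels name no culture or experiment, hence each group is 1 sample. Differences between groups were therefore neither replicated nor tested, and each SD is a spread over cells.

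GATA factors are zinc finger proteins that bind the DNA word GATA when A or T stands before it and A or G after it. Gata2 acts in stem and progenitor cells and in mast cells, and Gata1 in erythroid cells, megakaryocytes, mast cells and eosinophils. Gata3 is required for T cell development and for type 2 lymphocytes. Zfpm1 encodes FOG1, which binds the amino-terminal zinc finger of GATA proteins and recruits the NuRD complex, and Mitf is a basic helix-loop-helix factor of the MiT family known for melanocytes, mast cells and osteoclasts. In textbook accounts FOG1 assists GATA1 in erythroid cells and megakaryocytes, is low in mast cells, and Gata2 and Mitf work together there.

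The genes lie apart in the genome (build GRCm38, the assembly that mm10 names), apart from Gata2 and Mitf, which share a chromosome. Gata1 spans chrX:7959260-7978071 on the minus strand, Gata2 chr6:88193891-88207032 on the plus strand, Gata3 chr2:9857078-9890034 on the minus strand, Zfpm1 chr8:122282141-122337251 on the plus strand and Mitf chr6:97807052-98021349 on the plus strand. In the annotation, exons of Gata3 overlap an antisense gene, Gm13256, and a gene on the same strand, 9230102O04Rik. The strand setting of the authors' counting is not stated, so reads of these genes and of Gata3 cannot be told apart where they overlap.

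Promoter windows of RefSeq starts (GRCm38.p6, 250 bases before to 50 after each start) were found for all 5 genes, 8 windows in all. They were searched on both strands for that word, written out with A before it as AGATAA when it ends in A or as AGATAG when it ends in G, and with T before it as TGATAA for the ending in A or as TGATAG for the ending in G, of which only 1 can begin at a given base of a strand. Of 32851 windows of this length, 29.8% held at least 1 of the words. Of the 8 windows of these genes, 3 did, namely that of Gata3 and those of Mitf starts 2 and 3, numbered 5′ to 3′ among its 3 starts. The stretches shown are those of Gata1, Gata2 and Mitf, which were detected together in part of the D21 cells (Gata1 in 21 and Mitf in 19 of the 34 with Gata2), and the word of Gata3, which was detected in 14 of these 34. Letters are 5′ to 3′ on the strand of the gene, and capitals mark a word. The first is the 250 bases before the start of Gata1 (chrX:7967911-7968160, minus), the next are those before start 1 (chr6:88193641-88193890, plus) and start 2 (chr6:88198414-88198663, plus) of Gata2, then those before start 3 of Mitf (chr6:97991533-97991782, plus), and the last is a 30-base site after the start of Gata3 (chr2:9878551-9878580, minus).
Gata1: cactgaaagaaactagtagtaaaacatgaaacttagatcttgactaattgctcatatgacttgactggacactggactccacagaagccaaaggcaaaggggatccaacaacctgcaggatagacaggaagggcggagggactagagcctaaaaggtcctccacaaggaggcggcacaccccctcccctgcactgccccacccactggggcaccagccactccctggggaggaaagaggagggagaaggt
Gata2, start 1: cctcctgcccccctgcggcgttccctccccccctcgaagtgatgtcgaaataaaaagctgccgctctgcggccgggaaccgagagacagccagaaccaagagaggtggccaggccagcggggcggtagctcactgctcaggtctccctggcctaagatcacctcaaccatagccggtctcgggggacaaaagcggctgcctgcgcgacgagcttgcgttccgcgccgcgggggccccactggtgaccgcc
Gata2, start 2: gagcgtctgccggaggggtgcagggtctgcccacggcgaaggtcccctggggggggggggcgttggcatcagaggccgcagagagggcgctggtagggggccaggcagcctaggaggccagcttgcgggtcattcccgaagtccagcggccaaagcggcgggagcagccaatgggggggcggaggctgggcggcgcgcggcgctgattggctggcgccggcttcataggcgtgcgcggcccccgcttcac
Mitf, start 3: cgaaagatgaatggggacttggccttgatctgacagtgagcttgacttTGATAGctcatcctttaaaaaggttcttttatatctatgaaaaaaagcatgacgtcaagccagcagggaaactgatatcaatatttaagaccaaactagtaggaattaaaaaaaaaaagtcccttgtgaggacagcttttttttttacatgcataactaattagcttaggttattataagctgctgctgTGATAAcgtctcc
Gata3, site: ctgcctggcgccgtctTGATAGtttcagaa
The words of Mitf start 3 began at positions -202 and -13, counted with the last base before the start as -1. That of Gata3 began at base 37 of the transcript. Start 2 of Mitf, not printed, held TGATAA on the opposite strand, with its leftmost base at -36. Start 1 of Mitf, also not printed, held none of the words. TPM do not say which start of Mitf was used. The windows of Gata1, Gata2 and Zfpm1 held none of the 4 words, which says only that these letters are not there.

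Cells of a group differed in how much they showed. Detection means more than 1 TPM in a cell, and a median of 4926 genes was detected in iHECs, 8200 in D14, 8101 in D17 and 6696 in D21 cells. The iHECs matched their label by Cdh5, the vascular cadherin, which was detected in 63 of 65 iHECs and in 0 of the 95 iHPCs. The D21 cells had been sorted on CD127, the product of Il7r, yet Il7r was detected in 8 of the 22 D21 cells with Gata2 above 10 TPM and in 33 of the other 34. Over all genes, 6 pairs of cells with consecutive numbers were nearly identical, with Pearson r of log2(TPM + 1) above 0.97, namely iHEC 5 and 6, 15 and 16, 24 and 25, 32 and 33, D14 cells 8 and 9, and D17 cells 10 and 11. The median r between cells of a group was 0.66 in iHECs, 0.90 in D14, 0.86 in D17 and 0.77 in D21 cells. The labels do not say whether such a pair is 1 cell prepared in duplicate. With 1 cell of each pair, Gata2 was detected in 23 of 61 iHECs, 5 of 20 D14 and 3 of 17 D17 cells. Gata3 was detected in 25, 15 and 12 of these cells, and Zfpm1 in 15, 4 and 5. Counts of iHECs and D14 cells with both Gata2 and Gata3 are also given that way below. Of 30 calls of the 5 genes in these pairs, 3 differed between the cells of a pair, each with 0 TPM in 1 cell and between 1.12 and 2.21 TPM in the other. A single call just above 1 TPM was thus not always repeated.

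Gata2, the progenitor and mast cell factor, was detected in 16.7 to 60.7% of the cells of each group. Of 65 iHECs, 26 had it above 1 TPM (40%, with an exact 95% interval by Clopper and Pearson of 28.04 to 52.9%, which like all intervals here covers counting error only), as did 6 of 21 D14 cells (28.6%, 11.3 to 52.2%), 3 of 18 D17 cells (16.7%, 3.58 to 41.4%) and 34 of 56 D21 cells (60.7%, 46.8 to 73.5%). The interval of D21 lies above that of D17, and all other pairs of groups overlap. Each group is 1 sample, so this describes the cells and does not test the days. The share of all genes with intervals apart between these groups was not counted. In iHECs its level ran from 0 through a median of 0.0191 to a highest of 213.8 TPM. In D14 cells the 6 values above 1 TPM were 12.03, 11.1, 4.46, 3.48, 2.33 and 2.08 TPM. In D17 cells the 3 values were 6.78, 4.60 and 1.002 TPM, the last just over the limit.
At D21 the range opened, from 0 through a median of 2.53 to 1739 TPM, and it had a gap. A group of 22 cells lay between 66.0 and 1739 TPM, the next cell was at 9.18 TPM, and the remaining 34 cells lay at or below that value. No D14 or D17 cell reached the lowest of the 22.

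**Figure D1:**
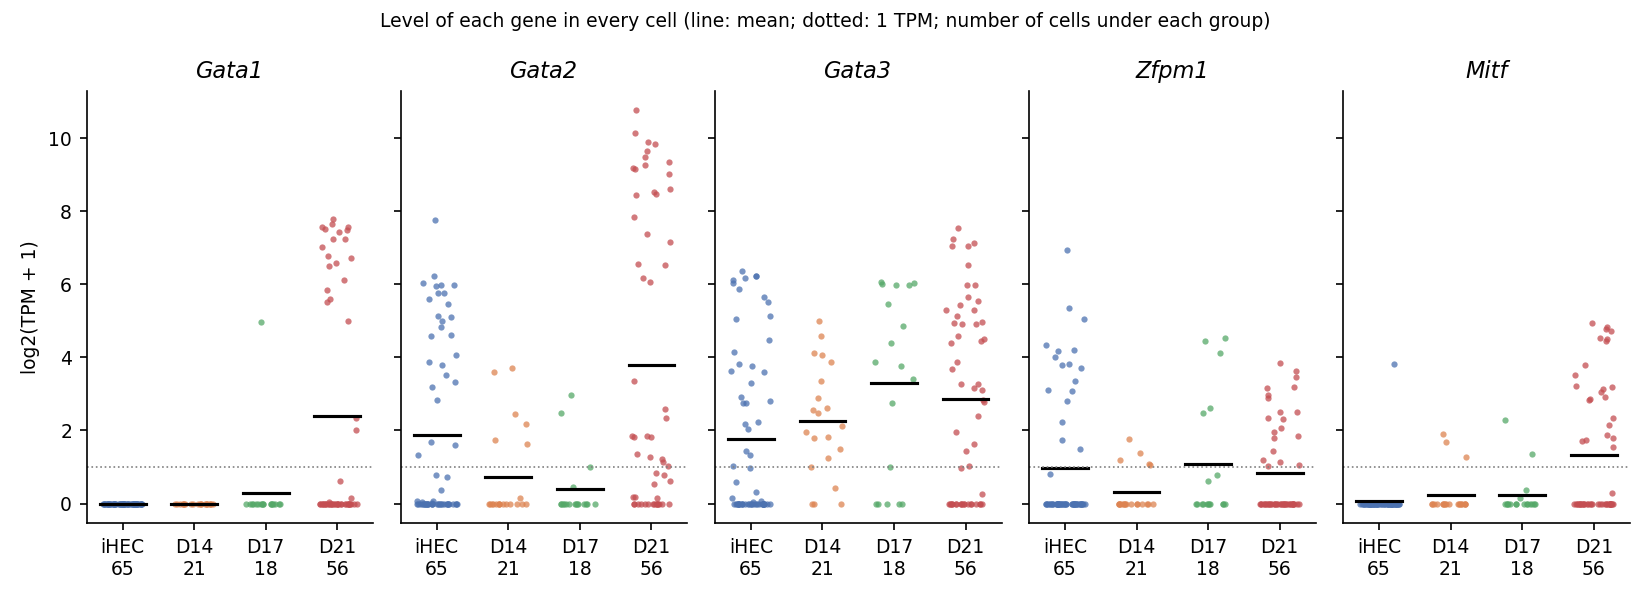
Level of the 5 genes in every cell, as log2(TPM + 1) on the y axis, with the 4 groups on the x axis and the number of cells under each group. Each point is a cell, the line is the group mean and the dotted line is 1 TPM. Gata2 shows the gap at D21 between 9.18 and 66.0 TPM, Gata1 is nearly absent before D21, and Mitf stays at or below 29.98 TPM in all cells.

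Gata1, the erythroid, megakaryocyte and mast cell factor, was nearly confined to D21 among these 160 cells. It was listed at 0 in all 65 iHECs and in all 21 D14 cells. Taking 3 cells as the most that a count of 0 allows, the share of cells above 1 TPM is up to 4.62% and 14.3%, and the exact intervals end at 5.52% and 16.1%. These limit cells with a TPM value, not cells that express the gene. In D17 cells it was found in 1 of 18, at 30.1 TPM. In D21 cells it was above 1 TPM in 21 of 56 (37.5%, 24.9 to 51.5%, an interval that overlaps the 0.141 to 27.3% of D17), with a median of 108 TPM in those cells and a highest of 219.6 TPM. The D21 values had a gap as well, with 2 of the 21 cells at 3.07 and 4.11 TPM and the other 19 at 30.7 TPM or more.

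Gata3, the T cell and type 2 lymphocyte factor, was found above 1 TPM in a smaller share of iHECs than of each iHPC group. The share above 1 TPM was 28 of 65 iHECs (43.1%, 30.8 to 55.96%), 16 of 21 D14 cells (76.2%, 52.8 to 91.8%), 13 of 18 D17 cells (72.2%, 46.5 to 90.3%) and 35 of 56 D21 cells (62.5%, 48.5 to 75.1%). The intervals of the 3 iHPC groups overlap, and that of the iHECs overlaps each of them. Above 10 TPM the shares were 26.2% of iHECs, 23.8% of D14, 55.6% of D17 and 42.9% of D21 cells. The iHECs also had fewer genes detected than each iHPC group, and the part of detection was not tested. Its median over all cells was 0.0492 TPM in iHECs, 3.32 in D14, 13.2 in D17 and 6.84 in D21 cells, and its highest value 81.5, 30.7, 65.3 and 183 TPM. The D17 cells with Gata3 fell into values of 43.4 to 65.3 TPM in 6 cells and 1.003 to 27.9 TPM in 7. The 6 cells include the near-identical D17 cells 10 and 11.

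Zfpm1, the FOG1 gene, was detected in 23.8 to 35.7% of the cells of each group. The number above 1 TPM was 17 of 65 iHECs, 5 of 21 D14, 5 of 18 D17 and 20 of 56 D21 cells, or 26.2% (16.03 to 38.5%), 23.8% (8.22 to 47.2%), 27.8% (9.69 to 53.5%) and 35.7% (23.4 to 49.6%), shares whose intervals all overlap. Its highest values were 122 TPM in an iHEC, 2.42 in a D14, 21.97 in a D17 and 13.4 TPM in a D21 cell. Above 10 TPM it was found in 10 iHECs, 0 D14, 3 D17 and 3 D21 cells.

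Mitf, the MiT family factor of melanocytes and mast cells, appeared mainly at D21. Above 1 TPM it stood in 1 of 65 iHECs (1.54%, 0.0389 to 8.28%), 3 of 21 D14 cells (14.3%, 3.05 to 36.3%), 2 of 18 D17 cells (11.1%, 1.38 to 34.7%) and 23 of 56 D21 cells (41.1%, 28.1 to 55.02%). The D21 interval lies above that of the iHECs and overlaps those of D14 and D17. The iHECs also had fewer genes detected, with a median of 4926 against 6696 in D21 cells, and the part of detection was not tested. How many of all genes had intervals apart in this way was not counted. Levels were low throughout. The D14 values were 2.72, 2.24 and 1.44 TPM, the D17 values 3.92 and 1.57 TPM, and the 23 D21 cells ran from 1.90 through a median of 7.71 to 29.98 TPM.

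Among D21 cells the order by mean log2(TPM + 1) was Gata2 (3.79 ± 3.99, SD over 56 cells), Gata3 (2.86 ± 2.59), Gata1 (2.40 ± 3.24), Mitf (1.33 ± 1.76) and Zfpm1 (0.83 ± 1.24). Neighbors in that order differed by less than the SD between cells. In iHECs Gata2 (1.86 ± 2.45) and Gata3 (1.76 ± 2.27) stood side by side, above Zfpm1 (0.98 ± 1.77), and again within the SD.

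Each group was compared with the one before it as a difference of mean log2(TPM + 1), later minus earlier. A second value gives the same difference after subtracting the median over 9674 genes, those detected in at least 31 of the 160 cells. Gata2, Gata3 and Zfpm1 passed that filter, with 69, 92 and 47 cells. Gata1 and Mitf did not, with 22 and 29 cells, and their values are given all the same. From D17 to D21, Gata2 was higher by 3.41 (4.15 relative to the median of -0.74), Gata1 by 2.12 (2.86 relative) and Mitf by 1.10 (1.84 relative). Gata3 differed by -0.45 and Zfpm1 by -0.26, which is 0.29 and 0.48 relative to the median, so the sign of both depends on that shift. Of the 9674 genes, 2.33% were higher by at least 1 log2 unit from D17 to D21 and 38.5% lower, and 1 of the 3 genes that passed the filter, Gata2, was among the higher. Each of these differences was smaller than the SD between D21 cells. Those of Gata2, Gata1 and Mitf were larger than the SD between D17 cells, which was 0.89, 1.17 and 0.61. The gate changed along with the day in this comparison, and the parts of both cannot be told apart.

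From iHEC to D14, Gata2 was lower by 1.13 (-2.06 relative to the median of 0.93), Zfpm1 differed by -0.68 (-1.60 relative) and Gata3 by 0.49 (-0.43 relative). In this comparison 48% of genes were higher by at least 1 log2 unit and 11.5% lower, and Gata2 was the 1 gene of the 3 past that limit. Gata1 stood at 0 in both groups and Mitf differed by 0.17. The gate changed between iHECs and D14 cells as well, and its part cannot be told apart from that of the stage. From D14 to D17, Gata3 was higher by 1.05 (0.78 relative to the median of 0.28) and Zfpm1 by 0.78 (0.50 relative), while Gata2 differed by -0.35 (-0.63 relative). Here 15.5% of genes were higher by at least 1 log2 unit and 3.89% lower, and Gata3 was the 1 of the 3 genes among the higher.

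Gata2 and Gata3 were found in the same cell above 1 TPM in 23.1% of iHECs and 25% of D21 cells. Above 10 TPM the shares were 10.8% (4.44 to 20.9%) and 3.57% (0.435 to 12.3%), with intervals that overlap. In iHECs 15 of 65 cells had both above 1 TPM (23.1%, 13.5 to 35.2%), 11 had Gata2 without Gata3, 13 Gata3 without Gata2 and 26 neither. Gata3 was thus detected in 15 of the 26 iHECs with Gata2 (57.7%, 36.9 to 76.6%) and in 13 of the 39 without it (33.3%, 19.1 to 50.2%), and the intervals overlap. The levels of the 15 cells ran from 1.49 to 64.5 TPM for Gata2 and from 1.02 to 81.5 TPM for Gata3, with Gata2 the higher in 5 cells and Gata3 in 10. Both were above 10 TPM in 7 iHECs. With 1 cell of each near-identical pair, 13 of 61 iHECs had both, and 6 of them had both above 10 TPM.

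The iHECs with both genes also had more genes detected, with a median of 6232, against 5028 with Gata2 alone, 4974 with Gata3 alone and 4570 with neither. Over the 65 iHECs, log2(TPM + 1) of Gata2 and Gata3 had a Pearson r of 0.21 with each other, and of 0.31 and 0.47 with the number of genes detected. The part of detection in the shared iHECs was not tested. Without the near-identical duplicates the r of Gata2 with Gata3 was 0.17 over 61 cells.

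In D14 cells 5 of 21 had both genes above 1 TPM (23.8%, 8.22 to 47.2%), 1 had Gata2 alone, 11 Gata3 alone and 4 neither. The 5 cells had 12.03 and 2.44, 11.1 and 5.14, 3.48 and 30.7, 2.33 and 2.92, and 2.08 and 3.32 TPM of Gata2 and Gata3. No D14 cell had both above 10 TPM. The last of the 5 is D14 cell 9, whose near-identical partner, D14 cell 8, had Gata2 at 0, and without cell 9 the count was 4 of 20. In D17 cells 1 of 18 had both (5.56%, 0.141 to 27.3%), at 1.002 TPM of Gata2 and 1.003 TPM of Gata3, 2 had Gata2 alone, 12 Gata3 alone and 3 neither. The r of Gata2 with Gata3 was 0.01 over 21 D14 cells and -0.53 over 18 D17 cells, where Gata2 rests on 3 cells.

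**Figure D2:**
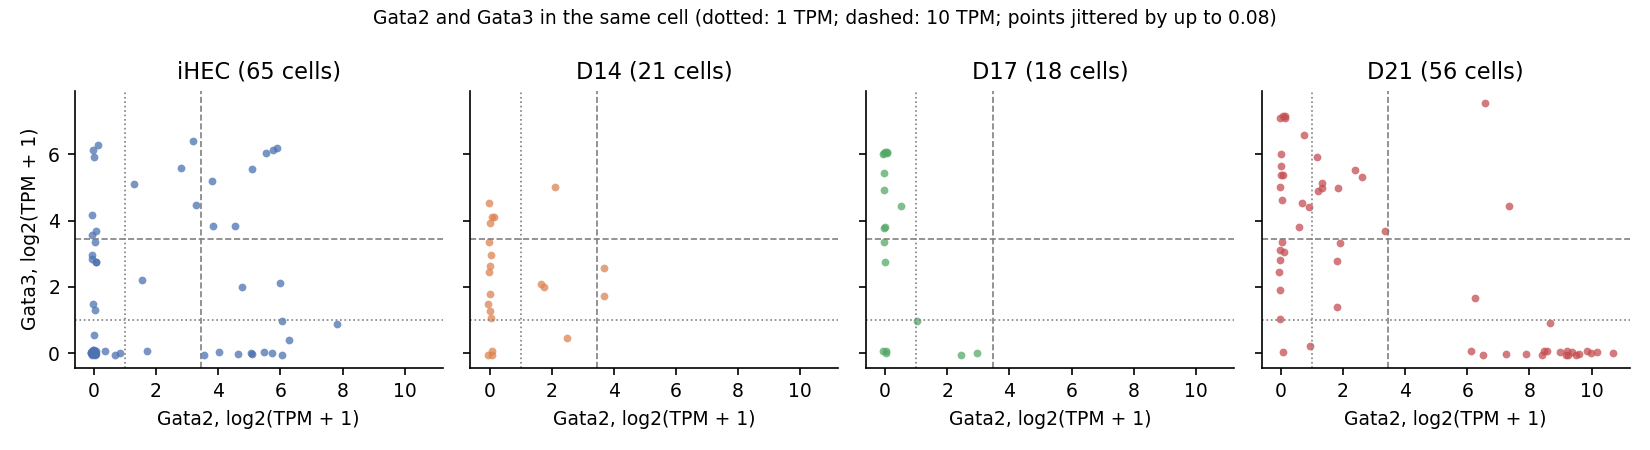
Gata2 on the x axis and Gata3 on the y axis, both as log2(TPM + 1), in each cell of the 4 groups. Dotted lines mark 1 TPM and dashed lines 10 TPM, and points are shifted at random by up to 0.08 so that cells at 0 can be seen. Above both dashed lines lie 7 iHECs, 0 D14 and D17 cells and 2 D21 cells.

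In D21 cells 14 of 56 had both genes above 1 TPM (25%, 14.4 to 38.4%), 20 had Gata2 alone, 21 Gata3 alone and 1 neither. Gata3 was detected in 14 of the 34 cells with Gata2 (41.2%, 24.6 to 59.3%) and in 21 of the 22 without it (95.5%, 77.2 to 99.9%), and these intervals do not overlap. Above 10 TPM fewer cells held both and more held neither, with 2 cells holding both, 20 Gata2 alone, 22 Gata3 alone and 12 neither. The r of Gata2 with Gata3 was -0.71 over the 56 cells, which were sorted by 1 gate.
The number of genes detected did not differ in the same way, with medians of 6707 in cells with both, 6981 with Gata2 alone and 6310 with Gata3 alone, and its r was 0.19 with Gata2 and -0.03 with Gata3.

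**Figure D3:**
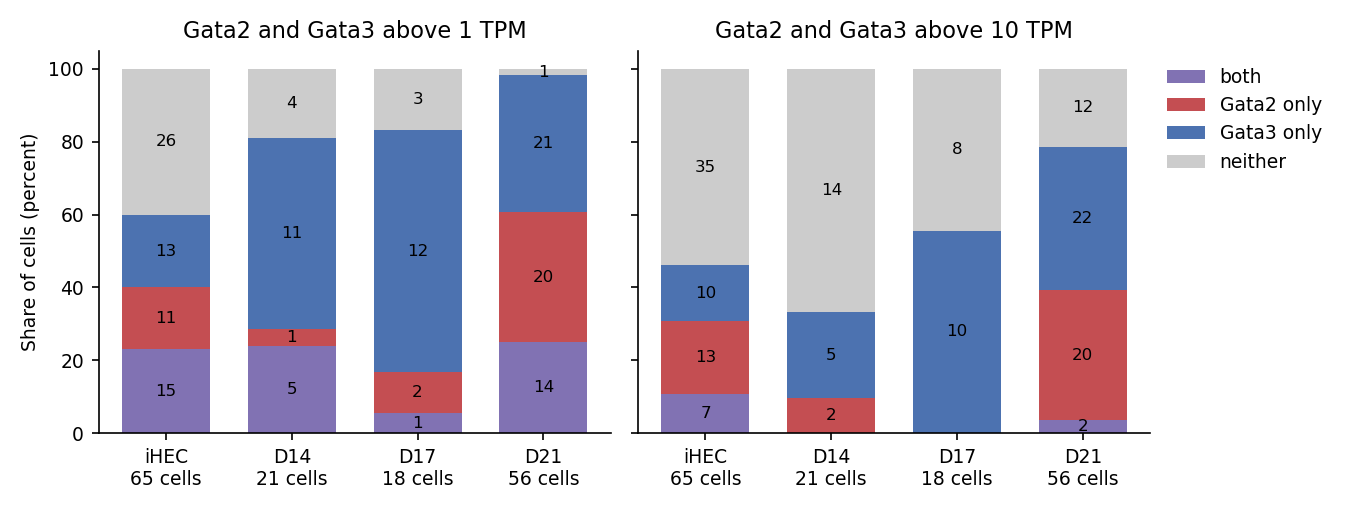
Share of cells of each group (y axis, percent) with both Gata2 and Gata3, 1 of them or neither, above 1 TPM at left and above 10 TPM at right, with the number of cells written in each bar. The share of cells with both at D21 is 25% at the lower limit and 3.57% at the higher one, and the D17 cells above 10 TPM are all Gata3 alone.

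The 14 D21 cells with both genes were mostly cells with high Gata3 and low Gata2. In 8 of them only Gata3 was above 10 TPM, in 1 only Gata2, in 2 both and in 3 neither, and Gata3 was the higher of the pair in 11. Their Gata2 had a median of 2.60 TPM, against 541 TPM in the 20 cells with Gata2 alone. Their Gata3 had a median of 29.3 TPM, against 22.9 TPM in the 21 cells with Gata3 alone.

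Transcripts of mast cell proteases were found in D21 cells with low Gata2 and in those with none. Mcpt4, a mast cell chymase, was above 1 TPM in 53 of 56 D21 cells. It had a median of 15876 TPM (lowest 350 TPM) in the 22 cells with Gata2 above 10 TPM, 32.1 TPM (highest 427 TPM) in the 19 cells with Gata2 above 0 and up to 10 TPM, and 9.43 TPM in the 15 cells with Gata2 at 0. Of those 15 cells, 12 had it above 1 TPM. Cpa3, a mast cell carboxypeptidase, was above 1 TPM in every cell of the 3 sets, with medians of 10662, 861 and 876 TPM in the same order. Whether RNA carried between cells gave the low Gata2 values was not tested.

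Gata1 and Mitf were detected more often in D21 cells with Gata2 than in those without it. All 21 cells with Gata1 had Gata2 (100%, 83.9 to 100%), and 0 of the 22 cells without Gata2 had Gata1. Gata3 was detected in 4 of the 21 cells with Gata1 (19.05%, 5.45 to 41.9%) and in 31 of the 35 without it (88.6%, 73.3 to 96.8%). Mitf was detected in 19 of the 34 cells with Gata2 (55.9%, 37.9 to 72.8%) and in 4 of the 22 without it (18.2%, 5.19 to 40.3%), intervals that overlap slightly. It was detected in 16 of the 21 cells with Gata1 (76.2%, 52.8 to 91.8%) and in 7 of the 35 without it (20%, 8.44 to 36.9%). Mitf was detected in 6 of the 35 cells with Gata3 (17.1%, 6.56 to 33.6%) and in 17 of the 21 without it (81.0%, 58.1 to 94.6%), and 0 of 56 cells had both Mitf and Gata3 above 10 TPM.

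For Zfpm1 the shares with and without Gata2 lay closer together, with intervals that overlap. It was detected in 13 of the 34 D21 cells with Gata2 (38.2%, 22.2 to 56.4%) and in 7 of the 22 without it (31.8%, 13.9 to 54.9%). With Gata1 it was found in 5 of 21 cells (23.8%, 8.22 to 47.2%) and without Gata1 in 15 of 35 (42.9%, 26.3 to 60.6%), and the intervals overlap. Of the 22 cells with Gata2 above 10 TPM, 5 had Zfpm1 above 1 TPM and 1 above 10 TPM.

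As r of log2(TPM + 1) over the 56 D21 cells, Gata1 stood at 0.85 with Gata2, 0.62 with Mitf and -0.65 with Gata3. Mitf stood at 0.67 with Gata2 and -0.54 with Gata3. Zfpm1 stood at -0.15 with Gata2, -0.21 with Gata1, -0.31 with Mitf and 0.21 with Gata3. The cells share a total of TPM and a day, so these values describe the cells and carry no test. Among the 9276 other genes found in at least 11 D21 cells, Gata1 ranked 28 by likeness to Gata2, and Mitf 132. The r of a gene with Gata2 had a median of 0.02 over those genes and lay between -0.40 and 0.45 for the middle 90%.

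The genes most like Gata2 included proteases of mast cells. The 8 highest r values over the D21 cells belonged to Ctla2a (0.94), Mcpt4 (0.94), Mcpt-ps1 (0.93), Ptgs1 (0.93), Cyp11a1 (0.92), Gp49a (0.92), Cma1 (0.92) and Papss2 (0.91). Mcpt4 and Cma1 encode mast cell chymases, Mcpt-ps1 is a related sequence, and Ptgs1 encodes a cyclooxygenase of prostaglandin synthesis. The protease genes resemble each other, as do Gp49a and Lilrb4, so reads can be split between them and their separate values are uncertain. The 5 lowest were Cd27 (-0.91), Lck (-0.90), Timp2 (-0.86), Nrgn (-0.86) and Bst1 (-0.85), of which Cd27 encodes a lymphocyte receptor and Lck a kinase of T cell receptor signaling.

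The genes most like Gata3 had lower r values. They were Clec12a (0.71), Psmb8 (0.70), Bst1 (0.68), Lck (0.66), Il7r (0.65), Trp53i11 (0.65), Timp2 (0.64) and Flt3 (0.64), where Il7r encodes the sorted CD127 and Flt3 a receptor of lymphoid progenitors. The lowest were Mcpt-ps1 (-0.77), Rab27b (-0.75), Cma1 (-0.74), Lilrb4 (-0.74) and Gnb4 (-0.74). Gata2 itself stood at rank 9264 of 9276 by likeness to Gata3. The genes named for Gata3 depend on the measure, since 3 of the 8 were kept with Spearman's rho and 6 of the 8 for Gata2.

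The genes most like Mitf were Adora2b (0.81), Clec4a2 (0.80), Il4 (0.80), Cfp (0.76), Clec4e (0.75), Gp49a (0.74), Gna14 (0.74) and Rab27b (0.74). Il4 encodes a type 2 cytokine that mast cells and basophils make, and Rab27b acts in granule release. The lowest were Tgtp1 (-0.72), BC035044 (-0.72), Cgnl1 (-0.71), Nrgn (-0.71) and Myl10 (-0.70). Of the 8 highest, 3 were kept with Spearman's rho.

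**Figure D4:**
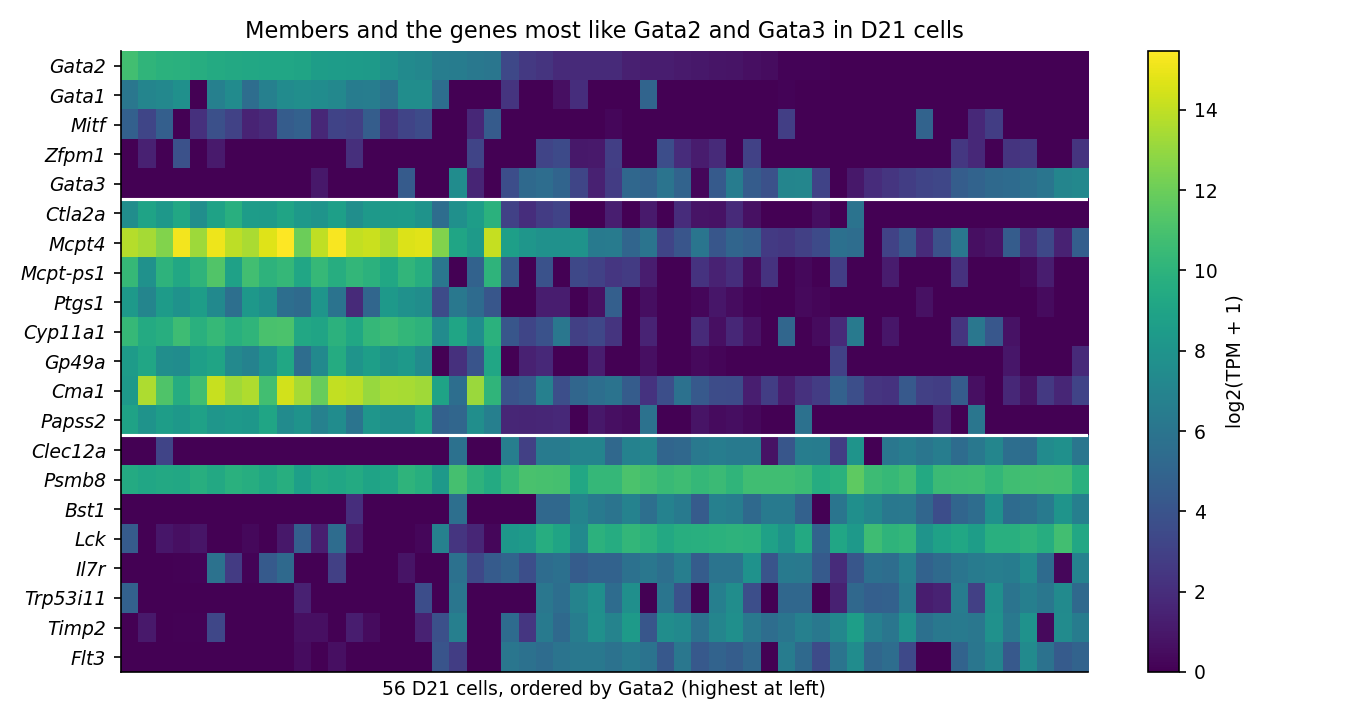
The 56 D21 cells (columns, ordered by Gata2 with the highest at left) and, from top to bottom, the 5 genes, the 8 genes most like Gata2 and the 8 most like Gata3 (rows), colored by log2(TPM + 1). The 22 cells at left with Gata2 above 10 TPM hold Gata1 in 18 and Mitf in 19, and the other 34 hold Gata3 in 32.

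In iHECs the likeness values were lower and pointed to other genes. The 5 genes most like Gata2 over the 65 iHECs were Lzts2 (0.58), Rreb1 (0.55), Dab2ip (0.54), Cln3 (0.53) and Kidins220 (0.52). Those most like Gata3 were Zhx3 (0.62), Prr5 (0.57), Rnf215 (0.54), Gnb5 (0.53) and Atf7 (0.53). Each of the 10 was detected in 11 to 27 of the 65 cells, near the lower limit of more than 10 cells. Mitf was detected in 1 iHEC and has no such list.

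Lists of marker genes were read in the D21 classes, the value of a list in a cell being the mean of log2(TPM + 1) over its genes. The mast cell list of 14 genes had a median of 6.50 (2.60 to 7.48) in the 20 cells with Gata2 alone, 2.097 (1.26 to 2.78) in the 21 with Gata3 alone and 2.96 (1.69 to 6.65) in the 14 with both. Cpa3 was detected in all 56 cells, with medians of 10662, 940 and 910 TPM in the same order. Hdc, the histamine-forming enzyme, had medians of 1165, 2.84 and 28.7 TPM. Ms4a2, the beta chain of the IgE receptor, was detected in 16 of 20, 0 of 21 and 3 of 14 cells. Its alpha chain is Fcer1a, which encodes the protein excluded by the D14 and D17 gate. Fcer1a was detected in 2 of 56 D21 cells and in 0 cells of every other group. Tpsb2, Tpsab1, Il1rl1 and Mrgprb1, also on the mast cell list, were not detected in more than 10 D21 cells either. Of the 14 genes, 2 were listed at 0 in all D21 cells.

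The basophil or eosinophil list of 7 genes had medians of 1.74, 0 and 0.36 in cells with Gata2 alone, Gata3 alone and both. Of its genes, 4 were listed at 0 in all D21 cells. Mcpt8, a basophil protease, was detected in 18 of 20, 5 of 21 and 9 of 14 cells. The T lymphoid list of 12 genes went the other way, with medians of 0.12 (0 to 1.75), 3.16 (0.96 to 4.52) and 2.35 (0 to 4.74). Lck had medians of 0.694, 785 and 594 TPM, and Tcf7, a T lineage transcription factor, was detected in 2 of 20, 15 of 21 and 10 of 14 cells. Cd3g, a chain of the T cell receptor complex, was detected in 3 of 20, 15 of 21 and 12 of 14 cells. Of the 12 genes, only Lck, Tcf7, Cd3g, Ptcra and Rag1 were detected in more than 10 D21 cells. The other chains of that complex on the list, Cd3d, Cd3e and Cd247, were not. Bcl11b, which acts at T lineage commitment, was detected in 1 of these 55 cells, with Gata3 alone.

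The innate lymphoid list of 11 genes had medians of 1.67, 2.18 and 1.88 in those classes, whose ranges overlap. Single genes of this list differed in direction. The r with Gata2 was 0.61 for Id2, -0.08 for Nkg7 and -0.56 for Gzma, and that with Gata3 was -0.57, -0.01 and 0.48. The type 2 cytokine list of 6 genes had medians of 1.32, 1.004 and 0.92, and within it Il4 was detected in 18 of 20 cells with Gata2 alone, 5 of 21 with Gata3 alone and 6 of 14 with both. Another gene of that list, Il17rb, went the other way. Its r was -0.60 with Gata2 and 0.46 with Gata3, where Il4 had 0.84 and -0.55. The erythroid list of 11 genes had medians of 0.40, 0.52 and 0.53, and of its genes Klf1, the erythroid factor, was detected in 1 of 56 D21 cells and Hba-a1, an alpha globin, in 1. The megakaryocyte, melanocyte and stromal lists had a median of 0 in all 3 classes. Of the osteoclast list, Ctsk, Dcstamp and Oscar were listed at 0 in all D21 cells, and Acp5 alone gave its medians of 0.02, 1.52 and 1.07. The endothelial list had medians of 0.60, 1.07 and 0.78, and the neutrophil or monocyte list 1.43, 0.26 and 1.11, where Ctsg, a protease of neutrophils and mast cells, had an r of 0.88 with Gata2.

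The further members of the GATA and FOG families were rarer. Gata5 was listed at 0 in all 160 cells. Gata6 was detected in 19 of 65 iHECs, up to 91.9 TPM, and in 1 D14, 3 D17 and 0 D21 cells. Gata4, known from heart and endoderm, was detected in 6 of 18 D17 cells, up to 194 TPM, but in 1 iHEC, 0 D14 and 0 D21 cells, a difference of -1.58 from D17 to D21. Zfpm2, the FOG2 gene, was detected in 10 iHECs and in 0 iHPCs. Trps1, an atypical GATA protein, was detected in 16 of 56 D21 cells, 11 of them with Gata2 alone, and had an r of 0.47 with Gata2.

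Of the 8 genes of the GATA complex partners, which join GATA factors on DNA, 6 were higher by at least 1 log2 unit from iHEC to D14 and 0 lower (median 1.35 against 0.93 for all genes), where 48% of all genes were higher and 11.5% lower. From D14 to D17, 2 were higher and 2 lower (median 0.68 against 0.28), where 15.5% of all genes were higher and 3.89% lower. From D17 to D21, 0 were higher and 5 lower (-1.09 against -0.74), where 2.33% of all genes were higher and 38.5% lower. Lmo2, the bridge of the complex, was detected in 45 of 65 iHECs, 19 of 21 D14, 13 of 18 D17 and 7 of 56 D21 cells, and differed by -2.68 from D14 to D17 and by -2.68 from D17 to D21. Tal1, the helix-loop-helix partner, was detected in 13 iHECs, 15 D14, 1 D17 and 11 D21 cells. Of the 11 D21 cells with Tal1, 10 had Gata2 alone and 1 had both Gata2 and Gata3. Tcf3, another helix-loop-helix partner, was higher by 3.77 from iHEC to D14 and differed by -2.25 from D17 to D21. Runx1 is also on the list, and its reads cannot be told apart from those of the induced Runx1 cassette.

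The NuRD subunits that FOG1 recruits, 10 genes, were higher by at least 1 log2 unit in 7 cases from iHEC to D14, in 1 from D14 to D17 and in 0 from D17 to D21, where 3 were lower. Over all genes 48%, 15.5% and 2.33% were higher in these comparisons, and 38.5% were lower in the last. The medians of the NuRD genes were 1.33, 0.64 and -0.58, against 0.93, 0.28 and -0.74 for all genes. Mbd3 was higher by 3.30 from iHEC to D14, Rbbp4 by 1.11 from D14 to D17, and Gatad2a differed by -1.88 from D17 to D21. The relatives of Mitf, Tfe3, Tfeb and Tfec, were higher at D14 than in iHECs, by 3.23, 2.80 and 1.69, where Mitf differed by 0.17. From D17 to D21 they had differences of -1.11, -2.64 and -1.17, opposite in sign to the 1.10 of Mitf.

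Across groups, the mast cell list had 8 of 14 genes higher by at least 1 log2 unit from D17 to D21 and 0 lower, led by Mcpt4 (8.01), Cpa3 (7.48), Mcpt1 (6.85) and Cma1 (6.71). Over all genes 2.33% were higher and 38.5% lower, the background of every list count from D17 to D21. Cpa3 was already detected in 11 of 18 D17 cells, up to 139 TPM, whereas Mcpt4 was listed at 0 in all iHECs, D14 and D17 cells. The basophil or eosinophil list had 2 of 7 higher and 0 lower, and Mcpt8 was higher by 3.60. Of the T lymphoid list 1 gene was higher and 2 were lower of 12, with Cd3g at 3.38, Lck at -1.84 and Ptcra, the pre-T cell receptor chain, at -1.54. From D14 to D17, when Gata3 was higher by 1.05, 3 of the 12 T lymphoid genes were higher and 0 lower, namely Lck (5.77), Ptcra (5.38) and Tcf7 (2.26). Over all genes 15.5% were higher and 3.89% lower, and the median of the list was 0.21, against 0.28 for all genes.
From iHEC to D14, when Gata2 was lower, all 11 genes of the endothelial list were lower (median -4.52). Of the neutrophil or monocyte list 6 of 8 were higher and 0 lower, against 48% higher and 11.5% lower over all genes. The sorting gate differed between these groups, and its part in these differences cannot be told apart from that of the stage. From D17 to D21 the innate lymphoid list had 3 of 11 higher and 1 lower, the type 2 cytokine list 1 of 6 higher (Il4, by 3.33), the erythroid list 1 of 11 lower (Nfe2, a difference of -2.99) and the neutrophil or monocyte list 1 of 8 higher and 4 lower. The megakaryocyte, melanocyte, osteoclast and stromal lists had no gene past 1 log2 unit, and the endothelial list had 3 lower.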

How the data were processed

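PolyA RNA of 160 single sorted cells was amplified (Discover-sc WTA Kit V2) and made into libraries (TruePrep kit). Per the labels, HISAT2 2.1.0, SAMtools 0.1.19 and StringTie 1.3.4 were used with the mm10 build, and the authors deposited TPM, 1 column per cell, which keep neither read counts nor depth. A cell's TPM summed to between 988686 and 999108. Sequencer names differ between labels and methods, which was not settled. Groups are those of the cell names and sources in the labels.

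The scale was log2(TPM + 1), a pseudocount of 1, computed in Python 3.11.15 with numpy 2.4.6, pandas 2.3.3 and scipy 1.17.1. Detection meant more than 1 TPM. Genes detected in more than 30 cells (9674) gave the median differences, and those detected in more than 10 cells of a group (9277 for D21, 8550 for iHECs) gave likeness by Pearson r. All cells were kept, and doublets were not called in these singly sorted libraries. A difference was counted from 1 log2 unit. Intervals are exact Clopper-Pearson 95% intervals, and a count of 0 allows 3 cells of the total. Named are the 5 genes, the 8 highest and 5 lowest by likeness to Gata2, Gata3 and Mitf at D21, the 5 highest in iHECs, and list genes, mainly the 4 that differed most in a comparison. Of 135 list genes in 16 lists, 132 were in the table. The 5 genes and the lists were chosen with earlier results of these data known. Ranking and counting steps were tested on simulated data. Some genes were named after their values had been seen, namely Gata5, Tal1, Ms4a2, Hdc, Fcer1a and Bcl11b, all list members, as was the comparison of Gata2 with Mcpt4. Alternatives were other limits, pseudocounts, size factors, Spearman's rho, no filter and only cells with at least 4000 genes, and, chosen after seeing the data, 1 cell of each near-identical pair.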

Additional observations from a re-analysis of the deposited data

How the results depend on the processing

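With the limit at 10 TPM instead of 1 TPM, Gata2 was counted in 9.52% of D14, 0% of D17 and 39.3% of D21 cells, Gata3 in 26.2% of iHECs, 23.8% of D14 and 42.9% of D21 cells, Zfpm1 in 15.4% of iHECs, 0% of D14 and 5.36% of D21 cells, and Mitf in 0% of D14, 0% of D17 and 16.1% of D21 cells. Both Gata2 and Gata3 were then found in 10.8% of iHECs, 0% of D14, 0% of D17 and 3.57% of D21 cells. Gata3 was then found in 35%, 0% and 9.09% of the iHECs, D14 and D21 cells with Gata2, and in 26.3% and 64.7% of the D14 and D21 cells without it. With the limit at 0 TPM both genes were found in 41.1% of D21 cells, and Gata3 in 100% of the D14 cells with Gata2. With a pseudocount of 10, r over D21 cells was -0.59 for Gata2 with Gata3, -0.55 for Gata1 with Gata3 and -0.42 for Mitf with Gata3. With no filter on low values, the difference of Mitf from iHEC to D14 relative to the median was 0.17 and not -0.75, since the median over all genes was 0. No difference of at least 1 log2 unit turned its sign under any alternative tried. The difference of Mitf from D17 to D21 ran from 0.36 with a pseudocount of 10 to 1.95 with one of 0.1, and that of Gata2 from 2.06 to 4.94. Counts of list genes from D17 to D21 that moved by over 1.5 times were, with a pseudocount of 0.1, 2 lower in the other GATA and FOG family, 4 higher in the T lymphoid, 5 lower in the endothelial, 1 higher in the osteoclast and 1 lower in the stromal list. With a pseudocount of 10 they were 0 lower in the other GATA and FOG family, 1 in the MiT family, 2 in the GATA complex partners, 1 in the T lymphoid, 0 in the innate lymphoid and 2 in the neutrophil or monocyte list, and 1 higher in the basophil or eosinophil list. With size factors they were 3 lower in the GATA complex partners and 1 higher in each of the basophil or eosinophil and osteoclast lists. With Spearman's rho 3 of the 8 genes most like Gata3 and 3 of the 8 most like Mitf were kept. With size factors the median difference of all genes from D17 to D21 was -0.58. With 1 cell of each near-identical pair, shares, co-detection and differences stayed within the interval or the SD between cells. No paired analysis was possible because no test was run and the numbers in the labels only name cells. TPM give no depth, so a gene at 0 may be missed rather than absent.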

Other observations

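Among D21 cells, 5 combined members that mostly stood apart, and they were chosen after their values had been seen. Cell 51 had Gata1 at 187, Gata2 at 165 and Gata3 at 20.9 TPM, with Mcpt4 at 25361 TPM, Lck at 0 and Il7r at 0.729 TPM. Cell 1 had Gata2 at 90.7 and Gata3 at 183 TPM, the highest Gata3 value of all 160 cells, with Gata1 and Mitf at 0, Mcpt4 at 550, Il7r at 54.3 and Lck at 4.33 TPM. Cell 44 had Gata1 at 30.7 TPM with Gata2 at 1.40, Gata3 at 29.2, Lck at 975 and Mcpt4 at 59.9 TPM. Cells 29 and 47 had Gata1 at 4.11 and 3.07, Gata2 at 9.18 and 2.60 and Gata3 at 11.8 and 8.60 TPM, with Mcpt4 at 427 and 246 TPM.

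In D17 cells the 1 cell with Gata1 (30.1 TPM) also had Gata3 at 62.7 and Zfpm1 at 16.3 TPM, and Gata2 at 0. It was the only cell outside D21 with Gata1.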
